A study of Mus musculus with 6 samples.

Results

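Transcript levels of 42 genes of hepatic amino acid catabolism were compared between livers of mice without and with ERα, the nuclear receptor of estrogens, in hepatocytes. The genes are listed by name as members of the pathway, and the list was drawn up with earlier results of these data known. Of the 42, 40 had a probe set that the array's annotation pairs with that gene alone, and these are part of 6902 genes measured in the same way. Afmid, a hydrolase of the tryptophan pathway, shares its probe set with another gene and is not reported, and Sds, serine dehydratase, was not analysed here. All 40 genes reached a signal of 100 in all 6 arrays, so none was kept through 1 group only. LERKO mice were female C57BL/6J mice with floxed ERα alleles and a cre recombinase under the albumin promoter (Alb-cre/ERα fl/fl, 3 mice). CT mice were female ERα fl/fl mice without cre (3 mice), so both groups carry the floxed alleles and the cre transgene goes with the loss of ERα. The albumin promoter is active in hepatocytes, and other cells of the liver keep the receptor. Each mouse was measured on 1 Affymetrix Mouse Gene 1.1 ST array, and the age, the feeding state and the hour of collection of these mice are not given in the sources used here.

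The liver is the main site where most amino acids are broken down. Aminotransferases and glutamate dehydrogenase move the amino group towards urea, and the carbon skeletons go on to glucose, ketone bodies or the citric acid cycle. Branched-chain amino acids are the exception, because their first step, the transamination by Bcat2, takes place mostly in muscle and other tissues, and the liver oxidises the keto acids. Several of the enzymes, with tyrosine aminotransferase as the classic example, are induced by glucocorticoids and glucagon.

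Levels are RMA signals (background-corrected, quantile-normalized and summarised per probe set) on the log2 scale, and differences are LERKO minus CT on the same scale. Esr1, the gene of ERα, had signals of 6.75, 7.06 and 6.77 in the LERKO mice, against 8.45, 8.78 and 8.29 in the CT mice. Each array thus carried the Esr1 level of its label, and the difference was −1.65 (standard error 0.15, adjusted p = 0.149 from limma). Adjusted p values are Benjamini-Hochberg values over the 10633 probe sets that reached a signal of 100 on at least 1 array. The study, which also used limma, reports Esr1 as significantly regulated in LERKO liver. With a signal of 100 required in all 6 arrays, the adjusted p of Esr1 from limma was 0.0409. The arrays correlated with each other at 0.967 or more. The 6 measured hepatocyte markers such as Alb and Ttr had a summed signal of 52570 to 54736 in LERKO mice and 53050 to 54903 in CT mice. A pair of libraries held transcripts of other organs. In LERKO replicate 2, 7 markers of the adrenal cortex summed to 7198, beside 82 and 101 in the other LERKO mice and 77 to 78 in CT mice. The same library had the highest sum of 6 adipocyte markers, 496, beside 159 and 191 in the other LERKO mice and 157 to 208 in CT mice. In CT replicate 3, 8 markers of the exocrine pancreas summed to 2024 (at most 132 in LERKO mice and 127 in the other CT mice), 9 of skeletal muscle to 1040 (at most 292 and 114) and 7 of squamous epithelium to 1660 (at most 119 and 105). The muscle sum of 292 was that of LERKO replicate 2, beside 139 and 129 in the other LERKO mice. The part of these transcripts in the results below was not tested, and the values of each group of genes without both libraries are given after the groups. In whole liver, fewer cells of a type and less RNA per cell cannot be told apart.

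**Figure D1:**
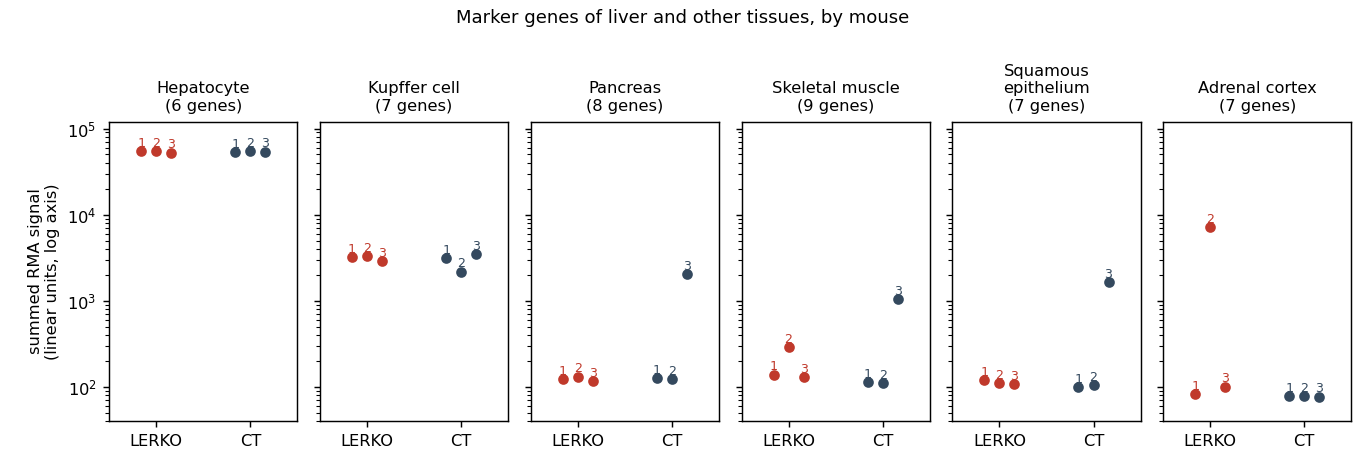
Summed RMA signal of marker genes in each mouse, in linear units on a log axis, 1 numbered point per mouse (the number is the replicate), for LERKO and CT livers. Hepatocyte sums lie between 52570 and 54903 in all mice, CT replicate 3 stands apart for pancreas (2024), muscle (1040) and squamous epithelium (1660), and LERKO replicate 2 stands apart for adrenal cortex (7198). The muscle sum of LERKO replicate 2 is 292, and adipocyte markers are not drawn.

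No gene of amino acid catabolism passed the test between LERKO and CT livers. At an adjusted p under 0.05 in limma, 0 of the 40 genes were higher and 0 lower, beside 0% of the 10633 probe sets tested in either direction. At an unadjusted p under 0.05 the count was also 0 of 40, where 6.98% of all probe sets lay below that value (2.98% higher in LERKO and 4.0% lower). These counts take the probe set of highest signal for each gene, and the other probe set of Bhmt had an unadjusted p of 0.0103 from limma. The differences ranged from −0.27 for Got1 to 0.35 for Prodh, with 17 genes above 0 and 23 below (46.5% and 53.5% of all probe sets). Their median was −0.02 (0.03 without CT replicate 2, −0.07 without CT replicate 3), and that of all probe sets was −0.0099. The median size of the difference, regardless of sign, was 0.0877 for the catabolic genes and 0.087 over all probe sets.

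The intervals give the size of change that these arrays leave room for. For all 40 genes the 95% confidence interval from limma lay within a 2-fold change in either direction, and for 34 of them within a 1.5-fold change. The 6 genes with a wider interval were Hal, Cth, Agxt, Gldc, Got1 and Prodh. For 18 genes the interval lay within a 1.25-fold change. These intervals are for single genes and were not widened for the number of genes. They hold for the fit with all 6 arrays. With fewer arrays some differences themselves passed 0.58, the log2 size of a 1.5-fold change. Without both libraries with transcripts of other organs, the difference was −0.69 for Got1 and −0.59 for Cth. Without CT replicate 1 it was 0.61 for Prodh. The distance from the difference to the end of its interval had a median of 0.26 over the 40 genes and of 0.236 over all probe sets, and the number of arrays limits this precision.

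**Figure D2:**
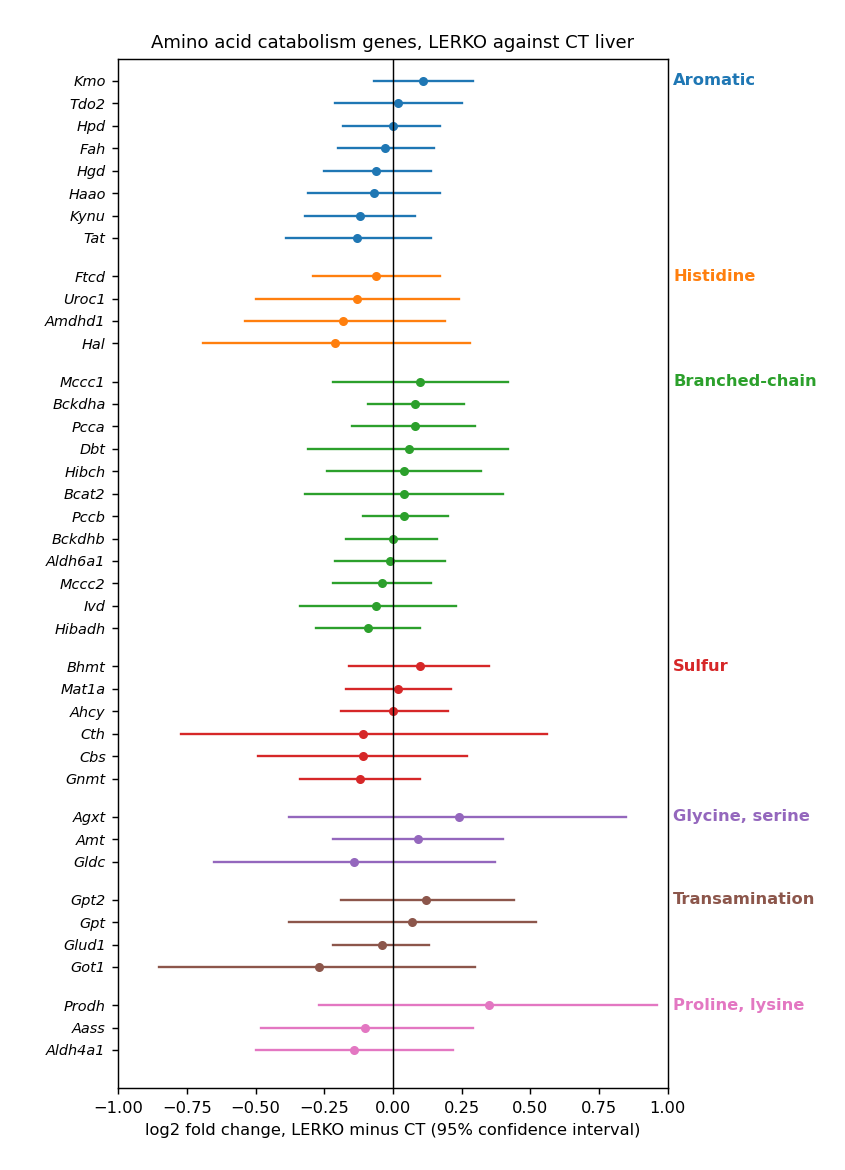
LERKO minus CT difference in log2 signal for the 40 measured genes of amino acid catabolism, by group, with 95% confidence intervals from limma (3 mice per group). All intervals include 0, and the differences run from −0.27 for Got1 to 0.35 for Prodh.

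The enzymes of the aromatic amino acids differed little between the groups. Of 8 measured genes of tyrosine and tryptophan breakdown, 2 were above 0 and 6 below, with a median difference of −0.04. Tat, the aminotransferase that opens tyrosine breakdown, had 12.51, 12.83 and 12.55 in LERKO mice and 12.74, 12.88 and 12.65 in CT mice. The groups overlapped, and the difference was −0.13 (95% confidence interval −0.39 to 0.14, adjusted p = 0.820 from limma). Hgd, the dioxygenase of homogentisate later in the same chain, had a difference of −0.06, and Hpd and Fah, also of the tyrosine chain, and Tdo2, which opens tryptophan breakdown, lay between −0.03 and 0.02. In the kynurenine pathway, Kmo, the monooxygenase of kynurenine in the outer mitochondrial membrane, had 11.11, 11.12 and 11.08 in LERKO mice and 11.08, 11.02 and 10.89 in CT mice. Kmo was the only one of the 40 genes for which all LERKO mice lay on 1 side of all CT mice, whereas 13.0% of all probe sets had groups that did not overlap (5.91% above and 7.13% below). The nearest mice of the groups had the same value of 11.08 after rounding. The difference was 0.11 (95% confidence interval −0.07 to 0.29, adjusted p = 0.785 from limma). Kynu, the kynureninase that follows, had 11.01, 10.98 and 10.90 in LERKO mice and 11.06, 11.21 and 10.98 in CT mice. With the groups overlapping, its difference was −0.12 (95% confidence interval −0.32 to 0.08). Haao, a dioxygenase on the way to NAD, had −0.07 (−0.13 to 0.02 with 1 array left out).

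The 4 genes of histidine breakdown were all below 0 in LERKO liver, with a median difference of −0.15, and all 4 were highest in CT replicate 2. Hal, the histidine ammonia-lyase that takes the first step, had 11.51, 11.84 and 11.59 in LERKO mice and 11.79, 12.28 and 11.50 in CT mice. Uroc1, the urocanate hydratase of the second step, had 10.31, 10.40 and 10.37 in LERKO mice and 10.43, 10.82 and 10.22 in CT mice. Amdhd1, the imidazolonepropionase of the third, had 9.88, 10.17 and 9.91 in LERKO mice and 10.07, 10.46 and 9.96 in CT mice. CT replicate 2 was thus the highest mouse for each of these genes, as it was for 28.3% of all probe sets, and also for Ftcd, the bifunctional enzyme that hands the last carbon to folate, at 10.38 beside at most 10.17 in LERKO mice and 10.11 in the other CT mice. The differences were −0.21 for Hal (95% confidence interval −0.69 to 0.28), −0.13 for Uroc1 (−0.50 to 0.24), −0.18 for Amdhd1 (−0.54 to 0.19) and −0.06 for Ftcd (−0.29 to 0.17), with adjusted p values of 0.820 to 0.907 from limma. Without CT replicate 2 the median of the 4 genes was 0.02, and without CT replicate 3 it was −0.27. With CT replicate 2 left out, Amdhd1 (−0.03) alone was still below 0 by more than rounding.

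Hal and Amdhd1 are neighbours on mouse chromosome 10, with 0 annotated genes between them in RefSeq. The promoter windows of the 4 genes are shown because this was the group whose members all had the same sign. Each window runs from 250 bases before to 50 bases after the annotated start, is taken from RefSeq in build GRCm38.p6 and is written 5′ to 3′ on the strand of the gene. Capitals mark a TATA box, TATAAA on either strand. The windows are chr10:93488518-93488817 on the plus strand for Hal, chr10:93539984-93540283 on the minus strand for Amdhd1, chr10:76575398-76575697 on the plus strand for Ftcd and chr6:90333039-90333338 on the plus strand for Uroc1.
Hal: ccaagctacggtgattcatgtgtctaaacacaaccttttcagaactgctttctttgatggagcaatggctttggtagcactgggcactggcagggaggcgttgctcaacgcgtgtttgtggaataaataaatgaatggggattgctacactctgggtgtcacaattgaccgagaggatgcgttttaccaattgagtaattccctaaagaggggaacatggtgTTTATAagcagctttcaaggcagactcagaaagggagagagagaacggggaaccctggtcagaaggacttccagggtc
Amdhd1: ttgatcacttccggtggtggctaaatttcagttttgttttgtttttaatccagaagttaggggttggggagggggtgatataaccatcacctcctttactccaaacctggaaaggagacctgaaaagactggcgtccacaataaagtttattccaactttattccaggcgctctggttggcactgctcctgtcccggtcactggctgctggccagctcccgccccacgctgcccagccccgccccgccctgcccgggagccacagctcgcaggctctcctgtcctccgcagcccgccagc
Ftcd: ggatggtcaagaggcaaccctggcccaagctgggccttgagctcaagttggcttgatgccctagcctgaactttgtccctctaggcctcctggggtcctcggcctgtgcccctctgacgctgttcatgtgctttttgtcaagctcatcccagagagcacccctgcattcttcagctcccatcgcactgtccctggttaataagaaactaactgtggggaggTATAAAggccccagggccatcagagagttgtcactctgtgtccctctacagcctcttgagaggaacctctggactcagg
Uroc1: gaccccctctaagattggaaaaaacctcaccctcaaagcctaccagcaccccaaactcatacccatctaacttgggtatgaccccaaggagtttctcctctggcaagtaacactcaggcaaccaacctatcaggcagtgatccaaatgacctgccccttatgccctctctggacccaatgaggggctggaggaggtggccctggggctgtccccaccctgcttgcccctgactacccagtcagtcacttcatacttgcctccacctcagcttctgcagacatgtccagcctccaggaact

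In Ftcd the TATA box starts at −29 from the start site on the strand of the gene, and in Hal it lies at −28 on the opposite strand. Of the 42 genes, 36 had a window in the RefSeq table, with 40 windows in all. TATAAA was found in 4 of these 40 windows, those of Ftcd, Hal, Hgd and Tdo2, and in 13.6% of all 32851 windows. A palindromic estrogen response element, written as GGTCA, 3 bases of any kind and TGACC, was found in 0 of the 40 windows and in 0.07% of all windows. The cAMP response element TGACGTCA was found in 0 of the 40 and in 1.79% of all. Both strands were searched, and the motifs do not overlap in these windows. A window of 300 bases leaves out more distant elements.

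For the branched-chain amino acids, the 12 genes had 7 differences above 0 and 5 below, all between −0.09 and 0.10, with a median of 0.04. Bckdha, a subunit of the branched-chain keto acid dehydrogenase, the step that commits the carbon skeletons to oxidation, had 9.53, 9.65 and 9.54 in LERKO mice and 9.46, 9.57 and 9.44 in CT mice. Its difference was 0.08 (95% confidence interval −0.09 to 0.26, adjusted p = 0.821 from limma), with overlap between the groups. Bckdhb and Dbt, further subunit genes of the complex, lay between −0.04 and 0.06, together with Bcat2, Mccc2, Pccb, Hibch and Aldh6a1. Bcat2, the aminotransferase of the first step, had a signal between 6.86 and 7.01 in LERKO mice and between 6.67 and 7.22 in CT mice. Mccc1, a subunit of the carboxylase in leucine breakdown, had a difference of 0.10, and its partner Mccc2 was among the genes within −0.04 to 0.06. Pcca, a subunit of propionyl-CoA carboxylase, had 0.08, Ivd, the dehydrogenase of isovaleryl-CoA, −0.06, and Hibadh, which serves valine breakdown, −0.09 (95% confidence interval −0.28 to 0.10). With 1 array left out, Mccc1 ranged from −0.03 to 0.18 and Ivd from −0.15 to 0.03, so neither kept its sign. The median of the group was 0.04 with all arrays, −0.04 without CT replicate 3 and −0.01 without LERKO replicate 3.

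The genes of methionine and cysteine had 3 differences above 0 and 3 below, with a median of −0.05 (0.04 without CT replicate 1, −0.13 without CT replicate 3). Gnmt, the methyltransferase that uses up S-adenosylmethionine, had 12.73, 12.93 and 12.86 in LERKO mice and 13.02, 13.04 and 12.82 in CT mice. Its difference was −0.12 (95% confidence interval −0.34 to 0.10, adjusted p = 0.808 from limma), and the groups overlapped. Mat1a, which makes S-adenosylmethionine, had 0.02, and Ahcy, which splits S-adenosylhomocysteine, had 0.00 on the probe set of highest signal and 0.02 and 0.03 on its other probe sets. Cth, the lyase that releases cysteine from cystathionine, had 11.01, 11.85 and 11.26 in LERKO mice and 11.78, 11.67 and 11.00 in CT mice. Both groups thus held low and high mice, and Cth had the largest spread within groups of the 40 genes (SD 0.426, above 96.1% of all probe sets). Cbs, which makes cystathionine, had 11.42, 11.42 and 11.31 in LERKO mice and 11.32, 11.87 and 11.30 in CT mice. Its difference of −0.11 came with the high value of CT replicate 2 and ranged from −0.21 to 0.08 with 1 array left out.

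For Bhmt, which remethylates homocysteine with betaine, the probe sets disagreed. The probe set of highest signal, which stands for the gene here, had 12.63, 12.70 and 12.68 in LERKO mice and 12.71, 12.35 and 12.66 in CT mice, a difference of 0.10 (95% confidence interval −0.16 to 0.35). Its other probe set had 8.75, 8.58 and 8.52 in LERKO mice and 8.23, 8.08 and 8.39 in CT mice. On that probe set all LERKO mice lay above all CT mice, with a difference of 0.38 (standard error 0.11, unadjusted p = 0.0103 and adjusted p = 0.703 from limma). Which transcripts each of them covers is not given in the annotation used here, so near-identical copies of Bhmt and Ahcy elsewhere in the genome remain an uncertainty for both genes.

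For glycine and serine, the 3 measured genes were Agxt, Gldc and Amt, with differences on both sides of 0 and a median of 0.09 (0.19 without CT replicate 2, −0.02 without CT replicate 3). Agxt, which passes the amino group of alanine to glyoxylate, had 10.83, 10.93 and 10.72 in LERKO mice and 10.54, 11.15 and 10.07 in CT mice. The CT mice included both the highest and the lowest of the 6, a range of 2.12-fold, and the difference was 0.24 (95% confidence interval −0.38 to 0.85, adjusted p = 0.847 from limma). Without CT replicate 2 it was 0.52, with an unadjusted p of 0.0173 and an adjusted p of 0.773. Gldc, the decarboxylase of the glycine cleavage system, had 9.24, 9.11 and 9.24 in LERKO mice and 9.13, 9.85 and 9.02 in CT mice. Here too CT replicate 2 stood above all others, and the difference of −0.14 became 0.12 with that array left out. Amt, its partner in the cleavage system, had 8.19, 8.11 and 8.37 in LERKO mice and 8.15, 8.33 and 7.91 in CT mice, with a difference of 0.09.

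Among the enzymes of transamination and ammonia release, 2 were above 0 and 2 below, with a median of 0.01 (−0.06 without CT replicate 3, −0.02 without LERKO replicate 2 and 0.03 without each of the other mice). Got1, the cytosolic aspartate aminotransferase, had the most negative difference of the 40 genes, with 11.80, 12.37 and 11.64 in LERKO mice and 12.32, 12.50 and 11.82 in CT mice. LERKO replicate 2 lay among the high mice and CT replicate 3 among the low ones, and the difference was −0.27 (95% confidence interval −0.85 to 0.30, adjusted p = 0.821 from limma). Gpt and Gpt2, the cytosolic and mitochondrial alanine aminotransferases, had differences of 0.07 and 0.12. Gpt had 8.97, 9.29 and 8.91 in LERKO mice and 9.07, 9.27 and 8.62 in CT mice, and Gpt2 had 10.76, 11.13 and 10.79 against 10.93, 10.79 and 10.60 in CT mice. For both genes LERKO replicate 2 was the highest mouse and CT replicate 3 the lowest. Glud1, the glutamate dehydrogenase of mitochondria, had −0.04 (95% confidence interval −0.22 to 0.13), and its 6 signals lay between 11.47 and 11.66.

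Proline and lysine breakdown held the largest difference of the 40 genes, and the median of its 3 genes was −0.10 (0.03 without CT replicate 2, −0.25 without CT replicate 3). Prodh, the proline dehydrogenase of the inner mitochondrial membrane, had 9.56, 9.95 and 9.82 in LERKO mice and 9.97, 8.93 and 9.39 in CT mice. CT replicate 2 had the lowest signal and CT replicate 1 the highest, and the difference was 0.35 (95% confidence interval −0.27 to 0.96, adjusted p = 0.802 from limma). With 1 array left out it ranged from 0.10 to 0.61. The value of 0.61 was that without CT replicate 1, with an unadjusted p of 0.0165 and an adjusted p of 0.795. Aldh4a1, the next enzyme of proline breakdown, had 10.20, 10.59 and 10.49 in LERKO mice and 10.71, 10.70 and 10.31 in CT mice, a difference of −0.14 opposite in sign to that of Prodh. Aass, which opens lysine breakdown, had 10.85, 11.10 and 10.78 in LERKO mice and 11.08, 11.25 and 10.69 in CT mice, a difference of −0.10.

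A pair of CT mice lay at opposite ends of the range for many of the genes. CT replicate 2 was the highest of the 6 mice for 18 of the 40 genes, and CT replicate 3 was the lowest for 22. Over all probe sets these shares were 28.3% and 24.4%. CT replicate 2 also had the lowest summed signal of 7 Kupffer cell markers, 2181 beside 2902 to 3333 in LERKO mice and 3107 and 3514 in the other CT mice, and the part of this in the results was not tested. Averaged over the 40 genes, the deviation from the 6-mouse mean of each gene was −0.08, 0.08 and −0.02 in the LERKO mice and 0.05, 0.13 and −0.15 in the CT mice. CT replicate 2 was not high throughout, since it had the lowest signal for Prodh, Bhmt and Bckdhb. For histidine breakdown its group mean was 0.38 and for glycine and serine 0.40, while the LERKO mice lay between −0.13 and 0.06 for these 2 groups of genes and the other CT mice between −0.38 and −0.01. The range among the CT mice was wider than that among the LERKO mice for 29 of the 40 genes, and for 60.5% of all probe sets. Within groups the SD of the 40 genes had a median of 0.143, beside 0.123 over all probe sets. Agxt and Prodh had the widest ranges over the 6 mice (2.12-fold and 2.05-fold), followed by Got1 (1.81-fold), Cth (1.80-fold) and Gldc (1.78-fold).

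**Figure D3:**
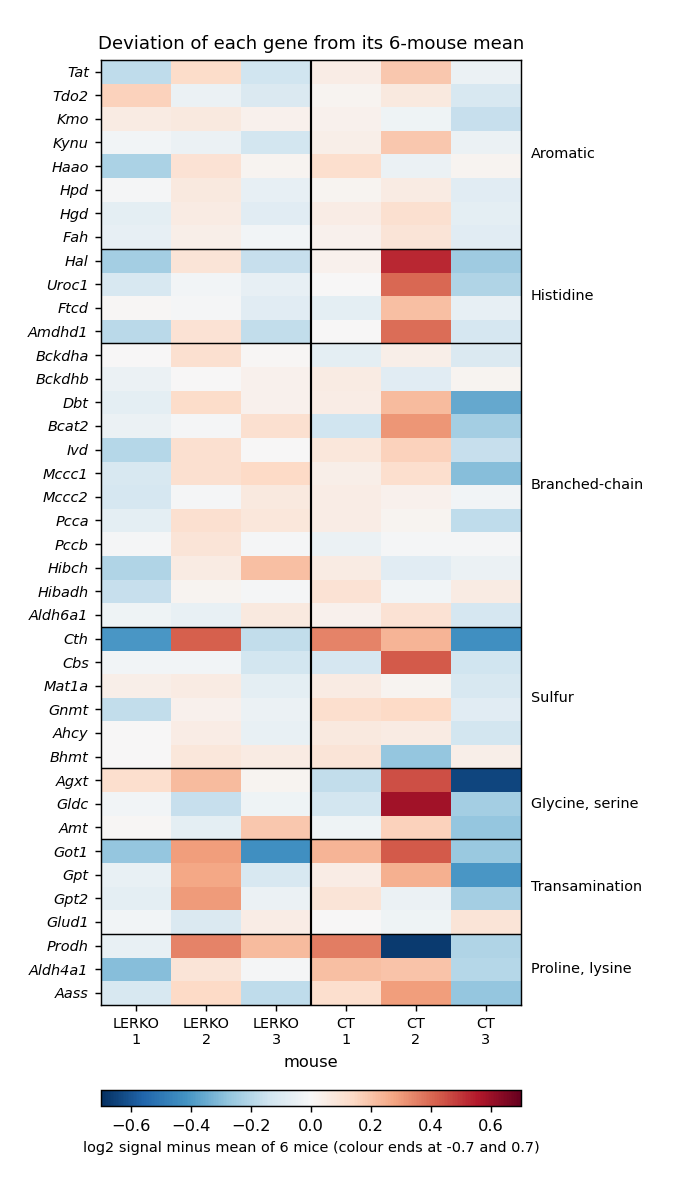
Signal of each of the 40 genes in each mouse, as the log2 deviation from the mean of the 6 mice (blue below, red above), with the 3 LERKO mice left of the 3 CT mice. The 4 histidine genes and Gldc are highest in CT replicate 2, Prodh is lowest there, and CT replicate 3 is the lowest mouse for 22 of the 40 genes.

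**Figure D4:**
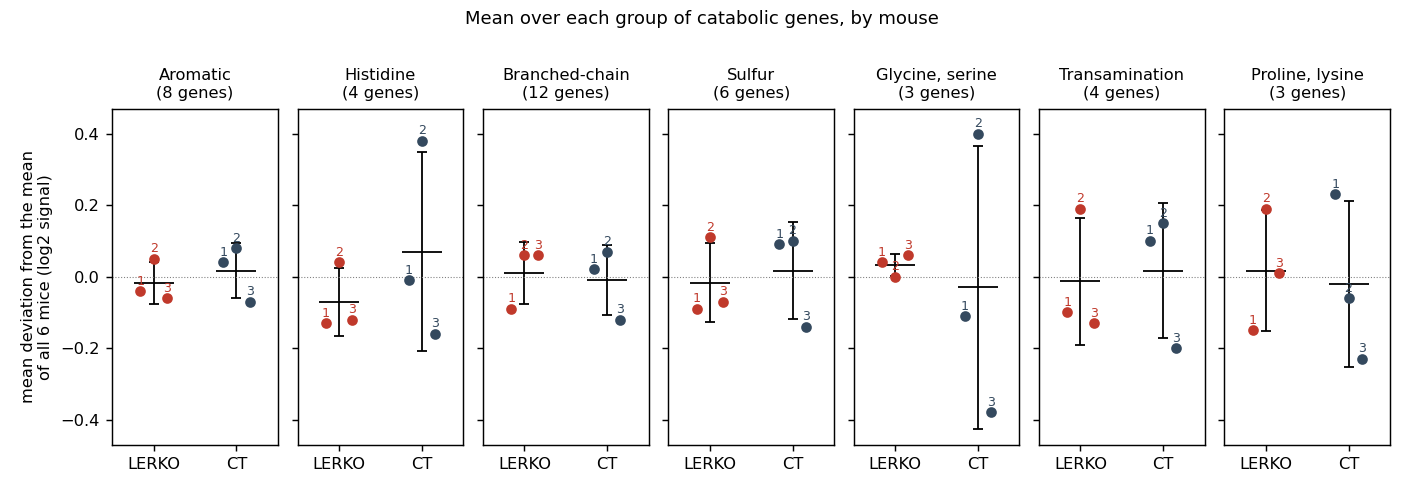
Mean log2 deviation from the mean of all 6 mice over each group of catabolic genes, 1 numbered point per mouse (the number is the replicate), with the mean and SD of the 3 LERKO and 3 CT mice. The groups of mice overlap in every panel, and the widest spread is among CT mice for glycine and serine, from −0.38 to 0.40.

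When both libraries with transcripts of other organs were left out, a setting chosen after seeing the data that leaves 2 mice per group, 31 of the 40 genes were below 0 and 9 above (57.2% of all probe sets were below). At an unadjusted p under 0.05, 6 genes were lower (6.81% of all probe sets) and 0 higher. These were Got1 (−0.69), Cth (−0.59), Hal (−0.48), Aldh4a1 (−0.36), Aass (−0.35) and Tat (−0.28), with adjusted p values of 0.392 to 0.456 from limma. Again 0 of the 40 genes and 0 of all probe sets passed an adjusted p of 0.05. The median over all 40 genes was then −0.09. By group it was −0.12 for the aromatic amino acids, −0.33 for histidine, −0.05 for the branched-chain amino acids, −0.16 for the sulfur amino acids, −0.07 for glycine and serine, −0.16 for transamination and −0.35 for proline and lysine. The medians of the branched-chain, glycine and serine, and transamination groups thus changed sign.

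Split by where the enzymes work, the 20 mitochondrial genes had 11 differences above 0 and 9 below, with a median of 0.04. The 19 cytosolic genes had 5 above 0 and 14 below, with a median of −0.07. Of all probe sets, 53.5% were below 0. Agxt, assigned to both peroxisomes and mitochondria, was in neither set and had a difference of 0.24. The mean of the mitochondrial genes was −0.08, 0.07 and 0.05 in LERKO mice and 0.05, 0.06 and −0.15 in CT mice. That of the cytosolic genes was −0.10, 0.09 and −0.10 in LERKO mice and 0.06, 0.18 and −0.13 in CT mice. The genotypes overlapped for both compartments, and with 1 array left out the medians ranged from −0.03 (without CT replicate 3) to 0.07 for the mitochondrial genes and from −0.13 (without LERKO replicate 2) to 0.00 (without CT replicate 2) for the cytosolic genes. Without both libraries with transcripts of other organs they were −0.05 and −0.19.

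Genes around the 40, in lists set up for this comparison, gave calls at about the rate of all probe sets. Of 94 such genes kept, 8 had an unadjusted p under 0.05 (8.51%, against 6.98% of all probe sets) and 11 had groups that did not overlap (11.7%, against 13.0%), and 0 passed after adjustment. The genes below are therefore given as values. The lowest p was that of Csad, the decarboxylase that turns cysteine sulfinate towards taurine. Its signal was 8.54, 8.85 and 8.39 in LERKO mice and 9.29, 9.96 and 9.47 in CT mice. Every LERKO mouse lay below every CT mouse, and the difference was −0.98 (standard error 0.20, 1.97-fold lower in LERKO, adjusted p = 0.703 from limma; −1.12 to −0.79 with 1 array left out). Cdo1, the dioxygenase that makes cysteine sulfinate, had 0.07, and Suox, the sulfite oxidase at the end of the other branch of cysteine breakdown, had 0.23 (0.10 without CT replicate 3), with all LERKO mice above all CT mice. In the list of further sulfur genes, 4 of 9 kept were above 0 and 5 below, and Csad alone had an unadjusted p under 0.05.

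Further genes of aromatic amino acid breakdown were mostly below 0, with 6 of 8, and 1 had an unadjusted p under 0.05, in the other direction. That gene was Aadat, an aminotransferase of kynurenine and aminoadipate, with 9.64, 9.65 and 9.54 in LERKO mice and 9.44, 9.39 and 9.28 in CT mice. Every LERKO mouse lay above every CT mouse, with a difference of 0.24 (standard error 0.08, adjusted p = 0.703 from limma). Acmsd, which steers tryptophan carbon away from NAD, had the largest difference of the list, with 7.36, 7.86 and 7.24 in LERKO mice and 7.88, 9.16 and 7.70 in CT mice. CT replicate 2 stood out once more, and the difference of −0.76 was −0.31 without it. Qprt, on the NAD side of the same branch point, had −0.28, and Kyat3, another aminotransferase of kynurenine, −0.20.

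In branched-chain breakdown, Bckdk, the kinase that switches the keto acid dehydrogenase off, had 7.35, 7.33 and 7.38 in LERKO mice and 7.18, 7.24 and 6.94 in CT mice. Every LERKO mouse lay above every CT mouse, with a difference of 0.24 (standard error 0.09, 0.15 without CT replicate 3, adjusted p = 0.703 from limma). Ppm1k, the phosphatase that switches the complex on, had −0.04. Of 10 further genes of this pathway kept, 4 were above 0 and 6 below. Of the 9 genes kept for glycine, serine and threonine, 5 were above 0 and 4 below, from −0.20 for Gcat to 0.18 for Shmt1, and 0 had an unadjusted p under 0.05. Of the 10 kept for other nitrogen handling, 4 were above 0 and 6 below. The largest there was Etnppl, a lyase of phosphoethanolamine, with 8.92, 9.42 and 8.74 in LERKO mice and 9.45, 10.47 and 9.15 in CT mice. Its difference of −0.66 was −0.27 without CT replicate 2. Oat, ornithine aminotransferase, had 0.22, and Got2, the mitochondrial partner of Got1, had 12.58, 12.57 and 12.64 in LERKO mice and 12.58, 12.65 and 12.56 in CT mice.

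Transporters that bring amino acids into hepatocytes or across the inner mitochondrial membrane were mostly below 0, with 11 of 14 and a median of −0.13, and 0 of them had an unadjusted p under 0.05. Slc43a1, a carrier of large neutral amino acids, had 7.14, 7.66 and 6.92 in LERKO mice and 8.07, 8.25 and 7.15 in CT mice. The groups overlapped through CT replicate 3, and the difference was −0.58 (standard error 0.32; −0.37 without CT replicate 2, −0.92 without CT replicate 3). Slc7a2, the carrier of arginine and lysine, had −0.23 (−0.09 and −0.43 without the same mice). Slc1a2 went the other way, with 0.21 and overlap (0.04 to 0.40 with 1 array left out). Slc7a8 had −0.20 with overlap and reached a signal of 100 in only 2 arrays. Slc38a3 and Slc38a4, of the glutamine and neutral amino acid carriers, had −0.06 and −0.13. A list of genes of amino acid shortage and amino acid synthesis was mostly at low signals in both genotypes. Of 12 measured, Shmt2 alone reached a signal of 100, and Asns, Trib3, Chac1 and Sesn2 lay below it in all 6 arrays. Slc38a2 and Slc3a2 were counted with the transporters, not in this list, and reached that signal in all 6 arrays.

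Among 12 regulators of these enzymes, 6 were above 0 and 6 below. Nr3c1, the glucocorticoid receptor, had 7.93, 7.89 and 7.89 in LERKO mice and 8.16, 8.06 and 8.08 in CT mice. Every LERKO mouse lay below every CT mouse, with a difference of −0.20 (standard error 0.06, adjusted p = 0.703 from limma; −0.21 to −0.17 with 1 array left out). Foxo1, which drives gluconeogenic genes when insulin is low, had 8.56, 8.55 and 8.42 in LERKO mice and 8.17, 8.06 and 8.46 in CT mice, a difference of 0.28 with overlap. The largest difference of the list was that of Cebpb, 0.35 with overlap (0.18 to 0.52 with 1 array left out). Hnf4a, Creb1, Ppara and Ppargc1a lay between −0.04 and 0.00, and Klf15, an activator of amino acid breakdown in fasting, and Gcgr, the glucagon receptor, had 0.12 and 0.14.

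Target genes of glucocorticoids and of fasting had differences of both signs, with 5 of 7 and 3 of 8 above 0. Zbtb16, a glucocorticoid target, had 7.96, 8.22 and 8.28 in LERKO mice and 7.01, 7.29 and 7.85 in CT mice. Every LERKO mouse lay above every CT mouse, with a difference of 0.77 (standard error 0.21, adjusted p = 0.703 from limma). Fkbp5 and Tsc22d3, also induced by glucocorticoids, had 0.53 and 0.38 with overlap, while Dusp1 had −0.56 with overlap. Sgk1 had −0.55, with every LERKO mouse below every CT mouse, and reached a signal of 100 in only 4 arrays. Single mice moved these values, to 0.22 without CT replicate 1 and 0.83 without CT replicate 3 for Fkbp5, to −0.28 without CT replicate 2 for Sgk1, and to −0.10 without LERKO replicate 1 and −1.03 without LERKO replicate 2 for Dusp1. G6pc1, the catalytic subunit of glucose-6-phosphatase, had 11.37, 11.62 and 11.90 in LERKO mice and 12.05, 12.21 and 12.47 in CT mice, a difference of −0.62 (standard error 0.16). By quantitative PCR the study reports no significant change of the glucose-6-phosphatase transcript between LERKO and CT livers. Cyp4a14, a target of PPARα, had 12.86, 12.30 and 12.45 in LERKO mice and 12.25, 11.52 and 11.93 in CT mice, a difference of 0.64 (standard error 0.22). Igfbp1 and Pdk4, of the same list, had −0.58 and −0.45 with overlap, and Pck1, which fasting and glucagon induce, had −0.02. For G6pc1 and Cyp4a14 the groups did not overlap, and both had an adjusted p of 0.703 from limma.

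**Figure D5:**
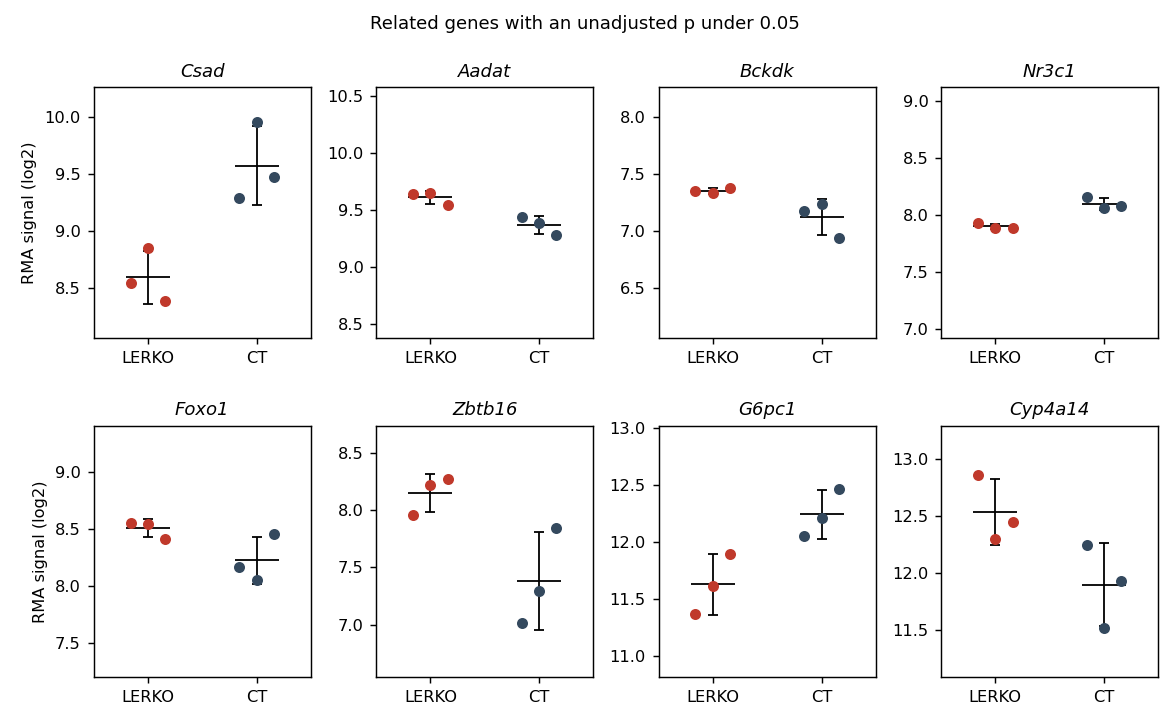
RMA signal (log2) of the 8 genes of the related lists with an unadjusted p under 0.05 in limma, with a point for each mouse and bars for the mean and SD of 3 LERKO and 3 CT mice, over the same length of the log2 scale in every panel. The panels were picked for their p, so their separation is no further evidence, and LERKO lies below CT for Csad, Nr3c1 and G6pc1, above CT for Aadat, Bckdk, Zbtb16 and Cyp4a14, and overlaps with CT for Foxo1.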

How the data were processed

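Liver RNA of 3 LERKO and 3 CT mice was hybridised to 1 array each. Deposited was a log2 signal for each probe set, which the authors made with the RMA method of the oligo package, so that probes were background-corrected, quantile-normalized and summarised. The package version is not given in the sources used here. The table was not filtered on signal.

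The study's methods leave out genes whose signal was below 100 in all samples. This was read as testing only probe sets that reached a signal of 100 on at least 1 array, 10633 of 35556. The test was that of limma (version 3.58.1, lmFit and eBayes, R 4.3.3), two-sided, on genotype alone. Its p values were adjusted by Benjamini-Hochberg over the 10633 probe sets, with 0.05 as the limit. On this reading of the filter 0 probe sets passed. With a signal of 100 required in all 6 arrays 3 passed, Esr1 among them. The study reports 3 significantly regulated genes, also with Esr1, and whether the others are the same was not compared. Genes were named from the platform's annotation through probe sets with 1 gene, with symbols updated by gene identifier. Where a gene had several, the probe set of highest mean over the 6 arrays stood for it. The model was also run on simulated arrays with independent noise, whose outcome is not given here and is not used for the results. Whether mice were littermates is not given, and the p values treat the mice as independent.

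The members and lists were chosen with earlier results of these data known. Named are up to 5 members of each group with the largest change, any with an unadjusted p under 0.05, and up to 4 genes of each further list by the same measure; others given with a value were chosen after their values were seen. Alternatives covered the signal filter, variance model, test, normalization, probe set choice, a block for the replicate number, and fewer arrays.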

Additional observations from a re-analysis of the deposited data

How the results depend on the processing

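Over 19 other settings, 0 of the 40 genes passed an adjusted p of 0.05 in limma or in the unequal-variance t-test, which the study names for its other data and not for arrays. Over all probe sets the count was 1 with a trend in limma and 3 with a signal of 100 in all 6 arrays, and 0 to 1 with 1 array left out (1 without LERKO replicate 3). Esr1, at an adjusted p of 0.149, had 0.0485 and 0.0409 under the first 2 of these. Of the 40 genes, 1 had an unadjusted p under 0.05 with the mean over the probe sets of a gene (Bhmt), 0 to 1 with 1 array left out (Prodh without CT replicate 1, Agxt without CT replicate 2), and 6 without both CT replicate 3 and LERKO replicate 2. In that last setting, added after seeing the data, the medians were −0.12 for aromatic, −0.33 for histidine, −0.05 for branched-chain, −0.16 for sulfur, −0.07 for glycine and serine, −0.16 for transamination and −0.35 for proline and lysine genes, −0.05 for mitochondrial and −0.19 for cytosolic genes, and the sign turned for Mccc1 (−0.06), Pcca (−0.03), Mat1a (−0.06), Agxt (−0.07), Gpt (−0.23), Gpt2 (−0.08), Glud1 (0.03) and Grhpr (0.01). Mat1a also turned with array weights (−0.01) and with quantile normalization repeated (−0.02). The count of probe sets at an unadjusted p under 0.05, 742, was 455 in the unequal-variance t-test, 1739 without the signal filter, 1152 without both libraries, 1188 without CT replicate 3 and 416 without LERKO replicate 1. The cause of these shifts was not tested.

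With 1 array left out, 15 of the 29 members named by size changed sign: Haao (−0.13 to 0.02), Hal (−0.38 to 0.00), Uroc1 (−0.27 to 0.04), Ftcd (−0.11 to 0.03), Ivd (−0.15 to 0.03), Mccc1 (−0.03 to 0.18), Cth (−0.35 to 0.07), Cbs (−0.21 to 0.08), Mat1a (−0.03 to 0.06), Bhmt (−0.01 to 0.16), Agxt (−0.02 to 0.52), Gldc (−0.30 to 0.12), Amt (−0.02 to 0.19), Gpt (−0.12 to 0.21) and Aass (−0.25 to 0.03). So did Aspg (−0.27 to 0.01) and Ethe1 (−0.35 to 0.05).

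Same-numbered LERKO and CT mice did not deviate together (correlations of −0.157, −0.0731 and −0.137). With 3 mice per group such correlations are tied to each other, so they cannot decide whether the numbers pair the mice. With the replicate block, 0 of the 40 genes had an unadjusted or adjusted p under 0.05, and 574 of all probe sets had an unadjusted p under 0.05.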
